A study of Halocynthia roretzi with 24 samples.

Results

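In embryos of the ascidian *Halocynthia roretzi*, 163 of 16078 measured gene models were near or at 0 at 8 cells and stood at least 2-fold higher in the animal than in the vegetal hemisphere at 110 cells. Expression was given as RPKM, the reads in a gene model per kilobase of its length and per M (mega) reads in genes. A model was taken as a member when its mean over 4 libraries was below 1 RPKM in animal hemispheres, whole embryos and vegetal hemispheres at 8 cells, when its highest 110-cell mean was 5 RPKM or more, and when the animal mean plus 1 divided by the vegetal mean plus 1 was 2 or more at 110 cells. In all, 484 models passed both limits on the level. Of these, 257 were biased to the vegetal hemisphere by the mirrored ratio, 60 had a ratio under 2 in either direction, and 4 were among 6 identifiers that the rule sets aside.

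Ascidians are tunicates whose early cleavages follow a fixed pattern. The animal hemisphere of the embryo gives mainly epidermis and parts of the nervous system, and the vegetal hemisphere gives mainly endoderm, notochord, muscle, mesenchyme and part of the nerve cord. Early embryos live on RNA stored in the egg, and transcription from the embryo's own genome then starts gene by gene. In the ascidian *Ciona*, a maternal GATA factor switches on early genes in animal cells, and nuclear beta-catenin marks the vegetal cells.

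The embryos were wild type, of a southwestern Japanese population raised in an inland laboratory. Animal hemispheres, whole embryos and vegetal hemispheres were each sequenced in 4 libraries at 110 cells and in 4 libraries at 8 cells, numbered 2 to 5 in each of the 6 groups. The labels do not say how the hemispheres were separated, how many embryos went into a library or what a number marks, so a p-value here measures only the spread between the libraries, which may be technical. The steps between low values gave an approximate depth of 3.60 to 9.09 M reads in genes per library, lower in the 110-cell vegetal libraries (3.60 to 5.43 M) than in the 110-cell animal ones (5.67 to 7.50 M). At a gene length of 1200 bp, 3 reads amount to 0.275 to 0.694 RPKM, which covers counting error only. As these are bulk samples, fewer cells that express a gene and less of its RNA per cell cannot be told apart.

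The label of the set as zygotic and animal had no independent check here, since the levels at both stages are what the rule used. The notes of the gene models held none of 30 names of ascidian epidermis, nerve, muscle and mesendoderm genes that were searched. Of the 163 members, 123 carried a note naming an identifier that starts with KH, the form used for *Ciona* gene models, 3 named a protein record of another animal, and 37 named no match. No function is given to any member here, and members are ordered by level. They are written by scaffold and gene number, so that S118.g01693 stands for Harore.CG.MTP2014.S118.g01693.

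Levels in animal hemispheres at 110 cells ranged from 5.11 to 147 RPKM over the members, with a median of 14.9 RPKM and quartiles of 7.41 and 34.7 RPKM. In whole embryos the members had a median of 5.25 RPKM and a range of 0.313 to 57.1 RPKM. In vegetal hemispheres the median was 1.85 RPKM and the range 0 to 24.9 RPKM. The set was thus made up mostly of moderately expressed models. There were 65 members with an animal mean from 5 to below 10 RPKM, 33 from 10 to below 20 RPKM, 40 from 20 to below 50 RPKM and 25 at 50 RPKM or more. Every member reached 5 RPKM in the animal mean itself, so whole-embryo values at 110 cells decided no membership.

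**Figure D1:**
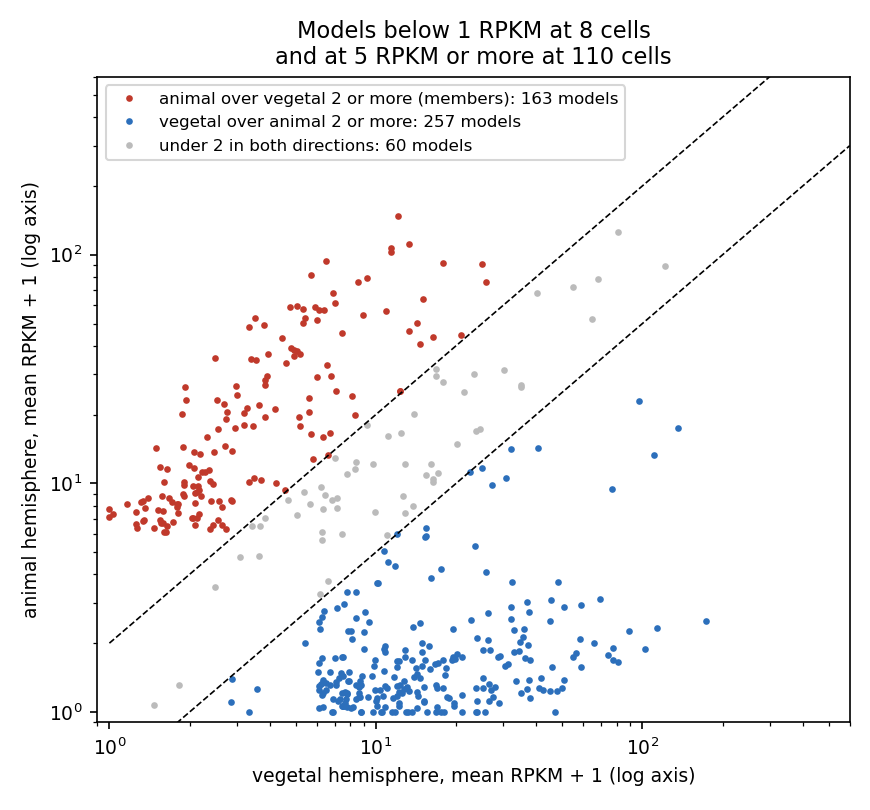
Mean RPKM plus 1 at 110 cells in animal hemispheres (vertical, log axis) against vegetal hemispheres (horizontal, log axis) for the models that were below 1 RPKM in each group at 8 cells and reached 5 RPKM in a group at 110 cells. Red points are the 163 members, blue points the 257 vegetal-biased models and grey points the 60 models between the dashed lines, which mark a ratio of 2 in each direction.

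The ratio of animal to vegetal means, each plus 1 RPKM, chose the members and is given here as a description. Its median was 5.14, with quartiles of 3.81 and 7.50 and a highest value of 15.1. It lay from 2 to below 4 in 46 members, from 4 to below 8 in 81 and at 8 or more in 36. The median ratio was higher among members with a higher animal level, at 4.31 for members below 10 RPKM and 8.99 for members at 50 RPKM or more. Since 1 RPKM is added to both means, the ratio is held down more in low members. In the fit of all 24 libraries with limma on log2(RPKM + 1), 147 of the 163 members were called higher in animal hemispheres at a Benjamini-Hochberg adjusted p under 0.05, and 3.64% of all 12703 models tested were. All 4 animal libraries lay above all 4 vegetal libraries in 111 members, against 4.79% of the models tested. With the library number as a block, limma called 156 members and 7.17% of the models tested. The rule used this contrast, so nothing is read from these counts. The 16 members without a call had animal means of 5.31 to 42.5 RPKM, a median ratio of 2.67, and a median coefficient of variation over the animal libraries of 79.5%, where the median over all members was 56.8%.

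The limits of the rule cut through a continuous range. Just inside the ratio, S640.g11412 averaged 12.3 ± 8.39 RPKM in animal against 5.59 ± 4.15 RPKM in vegetal hemispheres (SD, n = 4 each), a ratio of 2.01, and S116.g15514 and S124.g02474 followed at 2.05 and 2.06. Just outside it, S160.g12827 averaged 17.03 ± 6.19 RPKM in animal against 8.24 ± 6.03 RPKM in vegetal hemispheres, a ratio of 1.95, and S162.g05983 and S223.g01975 stood at 1.91 and 1.88. The members just inside the limit of 5 RPKM were S2231.g03366 and S12.g07995, both at 5.11 RPKM in animal hemispheres, and S105.g00001 at 5.30 RPKM. The models just outside it were S69.g13577 at 4.97 RPKM, S244.g02013 at 4.78 RPKM and S239.g10492 at 4.69 RPKM. The animal means on the 2 sides of this limit differed by less than 1 SD of the libraries of each of these models.

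The highest member was S118.g01693, on the minus strand of scaffold S118 at 29778 to 32263 with 8 exons and no named match. In the libraries numbered 2, 3, 4 and 5 it had 213, 98.0, 65.7 and 212 RPKM in animal hemispheres, 84.9, 19.9, 38.8 and 74.6 RPKM in whole embryos, and 8.02, 3.56, 1.39 and 31.4 RPKM in vegetal hemispheres. Each animal library stood above each vegetal one, and in each region the libraries numbered 2 and 5 were the high ones. S118.g00474, ninth by level, lies on the same strand within its span at 30897 to 31982, and 572 bp or 74.5% of its exon length is shared with S118.g01693. Its values of 109, 46.2, 34.2 and 124 RPKM in animal against 1.31, 2.85, 0.951 and 27.8 RPKM in vegetal hemispheres were again high in numbers 2 and 5 in animal hemispheres, and in number 5 in vegetal ones. The reads of the 2 models cannot be told apart over that stretch, and they may stand for 1 locus.

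Next by level was S255.g04863, whose note names KH.C3.438. It had 141, 76.8, 77.9 and 148 RPKM in animal hemispheres, 75.9, 39.2, 53.6 and 46.2 RPKM in whole embryos, and 8.21, 7.02, 9.37 and 24.4 RPKM in vegetal hemispheres. The 3 regions did not overlap, with whole embryos between the hemispheres. The same held for S518.g14262, which matches KH.C2.1055. It had 96.5, 126, 96.8 and 86.4 RPKM in animal hemispheres, 50.9, 68.8, 50.5 and 29.8 RPKM in whole embryos, and 4.72, 11.03, 7.85 and 17.96 RPKM in vegetal hemispheres. Its coefficient of variation over the animal libraries, 16.7%, was the lowest of the 10 highest members.

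S124.g12258, matched to KH.C2.958 and between S255.g04863 and S518.g14262 by level, ran against the usual order of libraries. It had 103, 107, 158 and 57.2 RPKM in animal hemispheres, with number 4 highest and number 5 lowest, and 42.9, 42.9, 69.6 and 31.9 RPKM in whole embryos, in the same order. In vegetal hemispheres it had 14.4, 11.9, 7.43 and 7.77 RPKM, below every whole and animal library. The means were 106 ± 41.4 RPKM in animal against 10.4 ± 3.37 RPKM in vegetal hemispheres (SD, n = 4 each), a 10.2-fold difference.

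**Figure D2:**
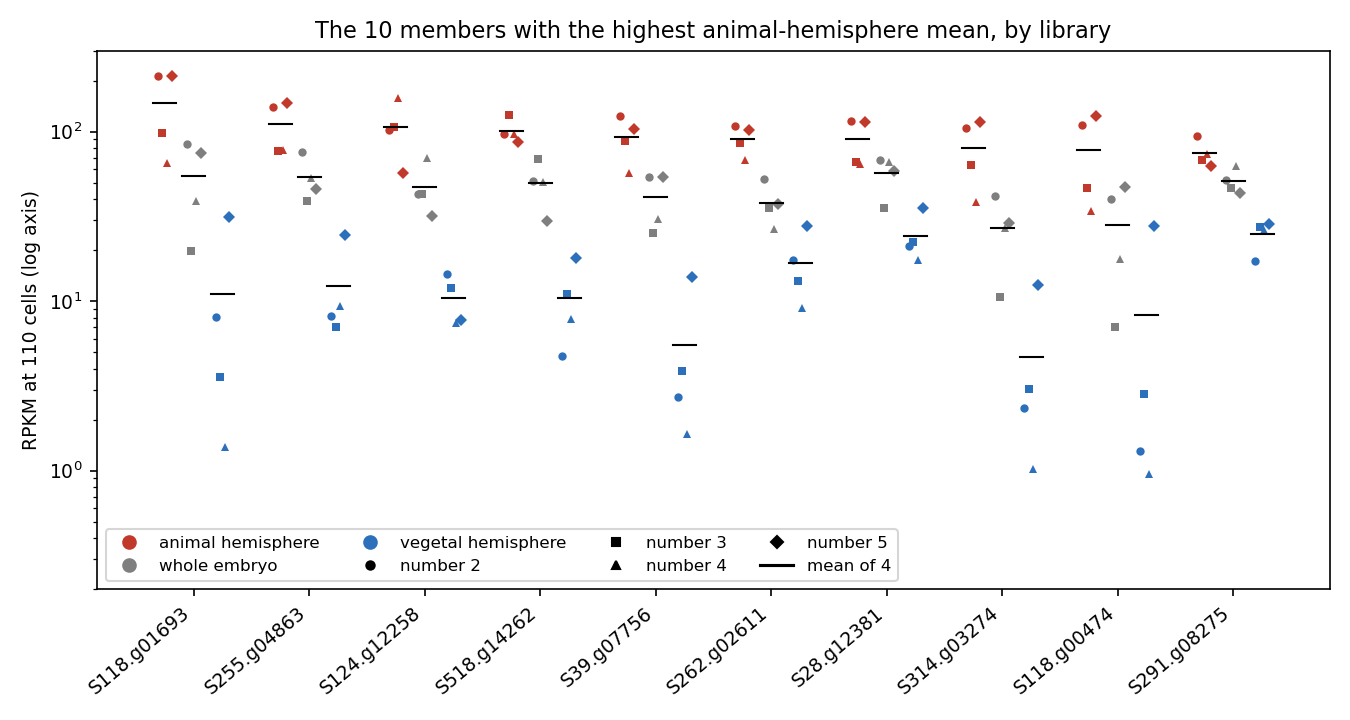
RPKM at 110 cells (log axis) of the 10 members with the highest animal mean, in animal hemispheres (red), whole embryos (grey) and vegetal hemispheres (blue). Symbols mark the library number and bars the mean of 4 libraries. In each of the 10 members all animal points lie above all vegetal points, and the vegetal point of number 5 (diamond) is the highest of its group in 9 of them.

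The other members among the 10 highest were S39.g07756, S262.g02611, S28.g12381, S314.g03274 and S291.g08275. Their animal means lay between 74.7 ± 13.7 RPKM for S291.g08275 and 93.0 ± 27.9 RPKM for S39.g07756 (SD, n = 4). They differed most in their level in vegetal hemispheres, where S291.g08275 averaged 24.9 ± 5.09 RPKM and S314.g03274 averaged 4.709 ± 5.21 RPKM. Animal hemispheres were thus 3.01-fold above vegetal hemispheres for S291.g08275 and 17.1-fold for S314.g03274, or 37.6-fold without the vegetal library of number 5. In all 10, each animal library lay above each vegetal library.

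With all libraries the highest ratio, 15.1, belonged to S528.g02923, matched to KH.C2.507. It had 66.1, 44.1, 26.1 and 72.1 RPKM in animal hemispheres, 31.9, 7.25, 14.8 and 22.2 RPKM in whole embryos, and 0.587, 0.640, 2.56 and 6.25 RPKM in vegetal hemispheres. The groups of both hemispheres were far apart, and the lowest whole-embryo library was close to the highest vegetal one. S39.g07756, S89.g00417, S314.g03274 and S17.g01902 followed, with ratios of 14.4, 14.4, 14.2 and 14.2. S17.g01902, a model of 2 exons matched to KH.C2.644, was 23.01-fold higher in the animal mean, at 34.3 ± 11.2 RPKM in animal against 1.49 ± 1.63 RPKM in vegetal hemispheres (SD, n = 4 each). The order among the highest ratios rested on single vegetal libraries. With 1 vegetal library left out S528.g02923 was never first, and the highest ratio was that of S17.g01902 without number 2 (20.5) or number 3 (13.6), of S89.g00417 without number 4 (18.8) and of S118.g00474 without number 5 (29.3). The ratio of S528.g02923 was then between 12.8 and 23.5. The fold of S17.g01902 was 47.8 without the vegetal library of number 2 and 17.3 without that of number 4.

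Most members kept some signal in vegetal hemispheres. The vegetal mean was below 1 RPKM in 43 members, from 1 to below 5 RPKM in 85 and 5 RPKM or more in 35, of which 15 reached 10 RPKM. The highest vegetal means were those of S291.g08275, of S28.g12381 at 24.1 ± 7.78 RPKM and of S124.g00531 at 19.8 ± 10.4 RPKM (SD, n = 4). For S124.g00531 the animal values of 48.4, 37.2, 55.6 and 32.3 RPKM overlapped the vegetal values of 32.8, 13.4, 9.77 and 23.3 RPKM, but within each of the 4 library numbers the animal value was the higher. Only 2 members, chosen here after their values were seen, were listed at 0 in all 4 vegetal libraries. S15.g05007 had 9.43, 4.78, 5.72 and 7.06 RPKM in animal hemispheres, at least 3.87-fold above the floor of 3 reads in the vegetal library with the highest floor. S651.g14283 had 3.21, 2.06, 4.10 and 15.3 RPKM in animal hemispheres, at least 3.04-fold above that floor by its mean, with number 3 close to it, and at least 1.54-fold without number 5.

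The share of the animal value found in vegetal hemispheres was not the same in all libraries. Taken within a library number, the vegetal value was a median of 7.73% of the animal value in number 2, 6.34% in number 3, 7.56% in number 4 and 17.1% in number 5. The vegetal-biased set, read the other way, had a median of 1.59%, 1.52%, 0% and 3.81% of its vegetal value in the animal libraries numbered 2 to 5, again highest in number 5. What part the number 5 libraries have in the vegetal levels of the members was not tested. Leaving the vegetal library of number 5 out gave a median ratio of 6.40 and 128 members with no overlap between the hemispheres, against 6.18% of the models tested.

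At 110 cells whole embryos entered the rule only through the limit of 5 RPKM, which every member met in the animal mean itself. They share the calculation of RPKM and the library numbers with the hemispheres, and whether they are independent of them was not tested. The whole-embryo mean was above the vegetal mean in 153 of the 163 members and above the animal mean in 5. It reached 5 RPKM in 85 members, and 105 members had 1 RPKM or more in all 4 whole-embryo libraries. All 4 whole-embryo libraries lay above all 4 vegetal ones in 43 members, 26.4% of the set, against 2.43% of the models tested. All 4 animal libraries lay above all 4 whole-embryo ones in 41 members, 25.2% of the set, against 2.72% of the models tested. The members had been picked for high animal and low vegetal values, which raises both shares. Within numbers 2, 3, 4 and 5 the whole-embryo value was above the vegetal one in 151, 134, 143 and 116 members, and the animal value was above the whole-embryo one in 158, 157, 132 and 155 members. Single libraries weighed on the counts without overlap. The count of whole above vegetal was 84 without the vegetal library of number 5 (4.37% of the models tested) and 67 without the whole-embryo library of number 3 (4.10%). The count of animal above whole was 93 without the animal library of number 4 (4.37%) and 79 without the whole-embryo library of number 2 (4.79%).

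The place of whole embryos between the hemispheres was expressed as whole minus vegetal divided by animal minus vegetal mean RPKM, so that 0 is the vegetal level and 1 the animal level. The median place over members was 0.26, with quartiles of 0.12 and 0.39, and it was below 0.50 in 144 of 163 members. In other words, whole embryos sat closer to the vegetal level for most members, at a median of 36.1% of the animal value. Within library numbers the median place was 0.33 in number 2, 0.18 in number 3, 0.49 in number 4 and 0.13 in number 5. For 137 animal-biased models that were outside the 8-cell limit, the median place was 0.32. For the 257 vegetal-biased models it was 0.61, again on the side of the hemisphere with the lower level. Both sets were selected on the difference between the hemispheres and share the 12 libraries, so these medians are descriptions.

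**Figure D3:**
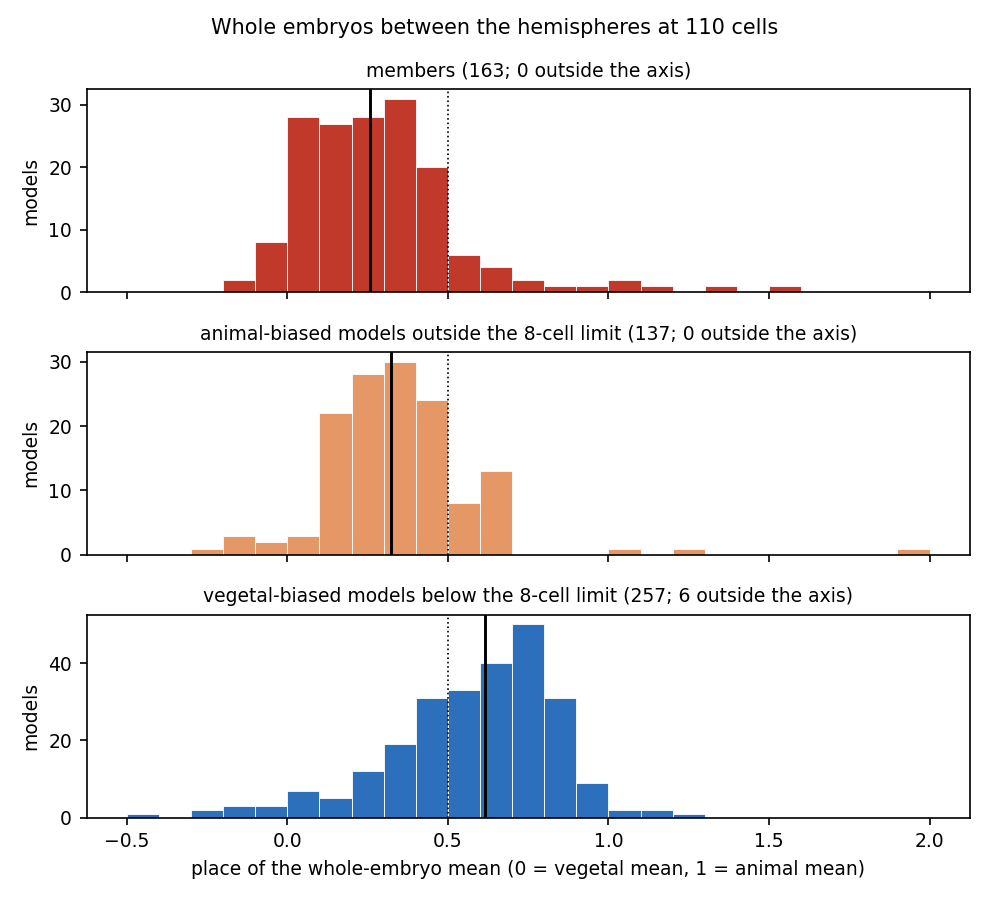
Number of models by the place of the whole-embryo mean at 110 cells, where 0 is the vegetal mean and 1 the animal mean, for the 163 members, the 137 animal-biased models outside the 8-cell limit and the 257 vegetal-biased models within it. Solid lines mark the medians of 0.26, 0.32 and 0.61, and dotted lines the midpoint of 0.50.

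A few strong members departed from that picture. Among members with an animal mean of 20 RPKM or more, the highest place was that of S62.g02514, matched to KH.L87.38, at 1.58. It had 17.3, 31.5, 29.9 and 19.1 RPKM in animal hemispheres, 30.4, 32.3, 34.9 and 30.4 RPKM in whole embryos, and 4.78, 18.4, 11.9 and 10.2 RPKM in vegetal hemispheres. Whole embryos were more even than either hemisphere and overlapped the animal libraries. S190.g14200 (matched to KH.C7.157) and S190.g14210 (no match), which neighbour each other on scaffold S190, came next at 1.10 and 0.86. S190.g14200 averaged 49.1 ± 16.7 RPKM in animal hemispheres, 52.6 ± 4.24 RPKM in whole embryos and 13.3 ± 8.28 RPKM in vegetal hemispheres (SD, n = 4 each). The other members with whole embryos above the animal mean, named after their values were seen, were S590.g12085, S54.g12716 and S54.g00671, all below 10 RPKM in the animal mean. S54.g00671 shares 220 bp, 63.2% of its exons, with S54.g12716 on the opposite strand, and reads of that stretch cannot be told apart.

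At the other end, S15.g04756, S429.g06139 and S53.g07217 had places of -0.03, 0.05 and 0.05. S53.g07217 had 34.5, 8.17, 9.23 and 36.8 RPKM in animal hemispheres, 3.95, 0.678, 1.497 and 1.65 RPKM in whole embryos, and 0, 0.427, 0 and 3.30 RPKM in vegetal hemispheres. Whole embryos were below every animal library and overlapped the vegetal libraries. S429.g06139, a model of 1 exon and 237 bp, had 46.3, 3.96, 4.06 and 47.3 RPKM in animal hemispheres and 6.12, 0, 0 and 2.05 RPKM in whole embryos. It shares 128 bp, 54.0% of its length, with the member S429.g07410 on the opposite strand, and these libraries did not keep strand.

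In animal hemispheres most members differed between library numbers in the same direction. Their median there was 20.3, 11.4, 7.08 and 22.9 RPKM in the libraries numbered 2, 3, 4 and 5. In whole embryos it was 7.69, 2.90, 4.17 and 5.39 RPKM, and in vegetal hemispheres 1.87, 1.01, 0.688 and 3.74 RPKM. Numbers 2 and 5 were thus above numbers 3 and 4 in the median of every region. Over 9951 models at 5 RPKM or more in a hemisphere, the medians of the same animal libraries were 28.2, 28.8, 29.8 and 27.3 RPKM, with no such difference.

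Member by member, the animal libraries of numbers 2 and 5 were both above those of numbers 3 and 4 in 116 of 163 members (71.2%), and both below them in 6. Over 9435 models with an animal mean of 5 RPKM or more the shares were 15.8% and 24.3%. The animal library of number 4 was the lowest of its group in 102 members (62.6%) and that of number 5 the highest in 81 (49.7%). Over the 9951 models at 5 RPKM or more in a hemisphere the shares were 21.85% and 21.24%. In whole embryos numbers 2 and 5 were both above numbers 3 and 4 in 87 members (53.4%), against 19.2% of 9498 models with a whole-embryo mean of 5 RPKM or more. In vegetal hemispheres they were both above in 78 members (47.9%), against 16.7% of 9565 models with a vegetal mean of 5 RPKM or more. The vegetal-biased models had the same order in their own hemisphere, with medians of 13.95, 10.95, 9.64 and 14.5 RPKM in the vegetal libraries numbered 2 to 5 and 122 of 257 models (47.5%) with numbers 2 and 5 both above. The 60 models with a ratio under 2 in either direction had it too, with medians of 11.42, 8.59, 6.985 and 11.2 RPKM in the animal libraries numbered 2 to 5. It was thus not particular to the members. This pattern was noticed in the data, and what sets the numbers apart was not tested.

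**Figure D4:**
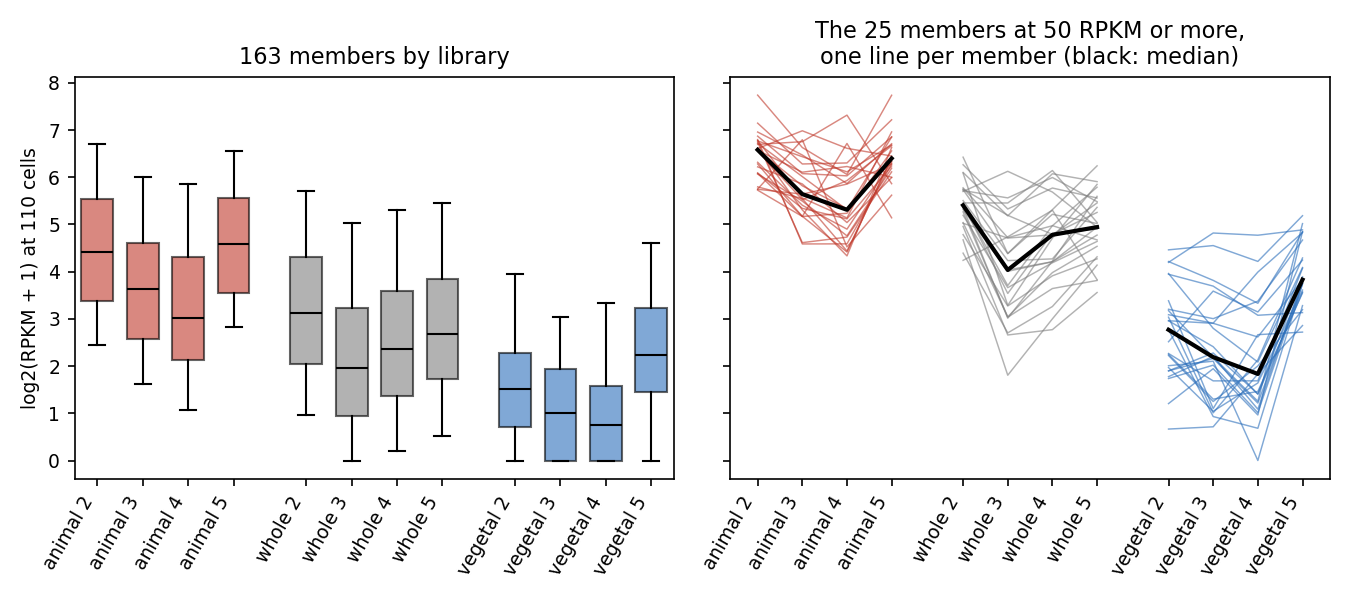
Left, log2(RPKM + 1) at 110 cells of all 163 members in each animal, whole-embryo and vegetal library. Boxes span the quartiles with the median, and whiskers the 5th to 95th percentiles. Right, the same values for the 25 members at 50 RPKM or more in animal hemispheres, where a line links the 4 libraries of 1 member and black lines are medians. Numbers 2 and 5 are the high animal libraries.

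The strong members differed in how far they followed the numbers. At a mean of 20 RPKM or more, the largest coefficients of variation over animal libraries were 97.3% for S429.g06139, 82.4% for S253.g11311 and 81.7% for S404.g08338. S253.g11311, matched to KH.L132.16, had 63.9, 13.2, 8.73 and 66.8 RPKM in animal hemispheres and 4.52, 1.502, 0.286 and 8.91 RPKM in vegetal hemispheres. S404.g08338, with no match, had 34.5, 9.84, 2.85 and 36.6 RPKM in animal hemispheres, again lowest in number 4. The smallest coefficient over the set was 10.3%, for S190.g14210, with 46.0, 47.5, 38.9 and 49.9 RPKM.

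At 8 cells the members were held below 1 RPKM by the rule, and 22 of them were listed at 0 in all 12 libraries of that stage. The sum over the 163 members was 4089 ± 1469 RPKM in animal hemispheres at 110 cells, against 40.8 ± 13.2 RPKM in animal hemispheres at 8 cells (SD, n = 4 each). It was higher at 110 cells in the other regions as well. Whole embryos had 1710 ± 511.8 RPKM against 40.2 ± 18.5 RPKM at 8 cells. Vegetal hemispheres had 576.2 ± 322.5 RPKM against 28.3 ± 3.11 RPKM at 8 cells. For the 36 members at 0 in all 8-cell animal libraries, the 110-cell animal mean was at least 4.08 to 64.4 times the highest floor of 3 reads in those libraries, with a median of at least 16.2 times. S17.g01902 had the largest of these bounds. The rule used these levels, so they describe the members and test nothing.

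The rule did not use the direction of the difference between the hemispheres at 8 cells, but it held both means below 1 RPKM, which limits the size of that difference, so nothing is read from a low count of calls. No member was called there by limma at an adjusted p under 0.05, where 15 of 12703 models, 0.118%, were called in either direction. An unadjusted p under 0.05 was found for 1 member and for 345 of the 12703 models. With the library number as a block limma called none of the members and 0.307% of the models tested. An unadjusted p under 0.05 was then found for 2 members and for 845 of the 12703 models. The 1 member in the fit without a block was S518.g14262. It had 1.44, 0.878, 0.873 and 0.708 RPKM in animal hemispheres, was listed at 0 in all 4 vegetal libraries, and had 0.489, 0, 1.38 and 0 RPKM in whole embryos at 8 cells. The fitted difference was 0.97 ± 0.32 (SE) on the log2(RPKM + 1) scale, higher in 4 of 4 animal libraries, with an unadjusted p of 0.00614 and an adjusted p of 1 by limma. It was called with a pseudocount of 0.1 RPKM (limma, adjusted p = 0.0133), where 0.134% of the models tested were. It was also called in a fit of the 8 libraries compared (limma, adjusted p = 0.0378), where 0.0866% were. It was not called with the replicate number as a block (limma, adjusted p = 0.425). Over all alternatives run its adjusted p was between 0.0133 and 1. These levels stand for a few reads each.

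Among the 136 members above 0 in a hemisphere at 8 cells, the animal mean was the higher in 96 (70.6%) and the vegetal mean in 40. The same share was 56.4% of 179 vegetal-biased models, 64.0% of 50 models with a ratio under 2 in either direction at 110 cells and 51.4% of 2935 models below 1 RPKM in every 8-cell group. Within numbers the animal value was higher in 52, 74, 64 and 33 members and lower in 40, 36, 33 and 43 members for numbers 2, 3, 4 and 5, so the order turned in number 5. Summed over the members, 8-cell animal libraries held 23.6 to 52.1 RPKM and 8-cell vegetal libraries 23.7 to 30.4 RPKM, which overlap. The median member had about 7.53 reads in all 4 animal libraries together and 2.01 reads in the 4 vegetal libraries, which were less deeply sequenced.

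The gene models of the members were of usual size. Their median exon length was 1223 bp, against 1216 bp in the vegetal-biased set and 1419 bp over all annotated models, and they had a median of 5 exons, against 6 over all models. There were 16 members with 1 exon. The 37 members with no named match were shorter, with a median exon length of 519 bp, but had like levels, with a median animal mean of 15.4 RPKM against 15 RPKM in the 123 members with a KH match. A unique match was noted for 9.20% of the members, against 10.1% of the vegetal-biased set and 21.8% of all models. The members named for a protein record, S349.g07955, S16.g15402 and S4.g05281, averaged 12.7 ± 10.5, 8.07 ± 6.64 and 7.41 ± 2.97 RPKM in animal hemispheres and 1.08 ± 1.05, 1.10 ± 1.27 and 1.41 ± 1.20 RPKM in vegetal hemispheres (SD, n = 4 each).

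Members lay on 110 scaffolds, and many were neighbours. With no other model between them, 63 of the 163 members (38.7%) stood next to another member, in 28 runs of which 5 held 3 or more. Of 15914 other annotated models, 234 (1.47%) stood next to a member. In the vegetal-biased set 80 of 257 models (31.1%) stood next to another of their set. Of the 28 runs, 19 had no overlap between exons, and 13 of those lay on 1 strand. Neighbouring models on 1 strand can be parts of a gene that the annotation split, and 9 runs had overlapping exons, so a run need not stand for as many genes. Among 234 models next to a member that were not members, 11 (4.70%) were animal-biased at 5 RPKM or more, against 0.899% of all 15915 models that are not members. The models that are not members include the identifiers set aside. Some animal-biased ones share exons with a member on the opposite strand, where reads cannot be told apart. Named after their values were seen, S44.g06887 shares 145 bp with S44.g07571 and S95.g11820 shares 183 bp with S95.g15938.

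The longest runs had 4 members. On scaffold S15, S15.g04756, S15.g12550, S15.g08097 and S15.g14915 lie on the minus strand at 542450 to 553226 with at most 1498 bp between them and no exon overlap. Both S15.g12550 and S15.g14915 match KH.C5.240. S15.g12550 had 55.7, 33.7, 13.2 and 67.2 RPKM in animal hemispheres and 16.6, 3.96, 13.6 and 27.6 RPKM in vegetal hemispheres, and its groups overlapped. S15.g14915 had 16.8, 12.1, 5.56 and 27.7 RPKM in animal hemispheres and 0.971, 0, 7.43 and 14.4 RPKM in vegetal hemispheres, and its groups overlapped as well. In number 4 the vegetal value was above the animal one in both S15.g12550 and S15.g14915. All 4 had low ratios, from 2.46 to 2.96. Number 5 was the highest vegetal library in 3 of them, and in S15.g08097 it was close to number 2.

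On scaffold S89, S89.g05678, S89.g09653, S89.g00417 and S89.g03860 lie at 145547 to 158408 on both strands. Their animal means were 16.99, 51.8, 47.1 and 37.2 RPKM and their vegetal means 2.19, 4.42, 2.34 and 3.92 RPKM, with ratios from 5.64 to 14.4. S89.g00417, a model of 324 bp, shares 283 bp, 87.4% of its exons, with S89.g09653 on the opposite strand, and reads of that stretch, 14.8% of the exons of S89.g09653, cannot be told apart. On scaffold S28, S28.g02257 and S28.g04050 lie within the span of S28.g04902 with no shared exon. S28.g04050, matched to KH.C14.154, had 73.5, 57.0, 31.9 and 62.7 RPKM in animal hemispheres and 2.42, 3.61, 1.124 and 13.2 RPKM in vegetal hemispheres, more than S28.g04902 (25.8 RPKM) and S28.g02257 (12.7 RPKM) in the animal mean.

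**Figure D5:**
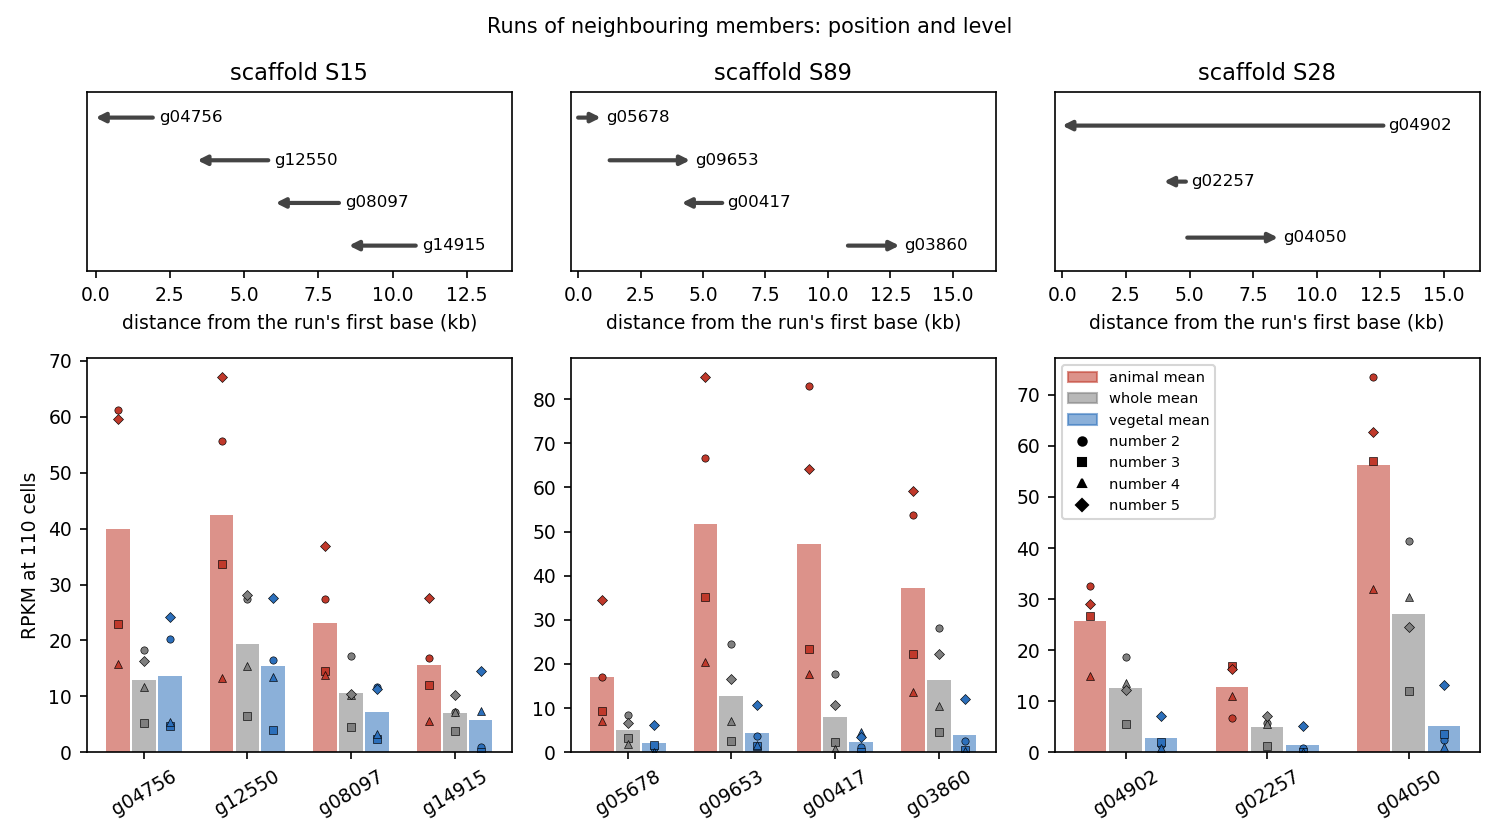
Top, positions of the neighbouring members on scaffolds S15, S89 and S28 as distance from the first base of the run, with arrows in the direction of the strand. Bottom, their RPKM at 110 cells in animal hemispheres (red), whole embryos (grey) and vegetal hemispheres (blue), with bars for the mean of 4 libraries and symbols for library numbers. The vegetal means are 13.7 and 15.4 RPKM for S15.g04756 and S15.g12550, and 4.42 RPKM or less in the run on S89.

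Other pairs ranked high among neighbours. S255.g12802 follows S255.g04863 on the plus strand 61 bp on, and had 36.9 ± 17.7 RPKM in animal against 4.07 ± 2.98 RPKM in vegetal hemispheres (SD, n = 4 each). Its 9.07-fold difference was close to the 9.03-fold difference of S255.g04863, and without the vegetal library of number 5 the differences were 13.6-fold and 13.5-fold. S124.g00531 and S124.g12258 lie on opposite strands 3145 bp apart, and were unlike each other, at 2.19-fold and 10.2-fold.

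Many members shared their match with other models, and most of those models were low. There were 8 matches named by more than 1 member, which took in 17 members. Apart from the identifiers that the rule sets aside, 2 of which share a match with a member and are animal-biased, a further 215 models name the same match as a member. Of these, 159 were below 5 RPKM in every 110-cell group, 50 reached 5 RPKM with no bias, 5 were vegetal-biased and 1 was animal-biased. Over all models that are not members 0.899% were animal-biased. No such share is given here for the other counts, so nothing is read from them about models that share a match. KH.C8.510 is the match of 22 models, of which 3 are members. S262.g02611 had 108, 85.5, 68.3 and 102 RPKM in animal hemispheres and 17.6, 13.1, 9.06 and 27.7 RPKM in vegetal hemispheres. The other two, S101.g03446 and S610.g04949, were named after their values were seen and averaged 6.33 ± 4.11 and 5.72 ± 4.26 RPKM in animal hemispheres (SD, n = 4). Of the 19 remaining models with that match, 17 were below 5 RPKM in every 110-cell group. How reads that fit several such models were counted is not stated in the labels or the file. The median ratio was 5.06 over the 62 members with neither a shared match nor an exon overlap on the opposite strand.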

How the data were processed

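The authors deposited RPKM values for 16078 gene models in 24 libraries and an annotation of 16082 gene models with start and end positions on scaffolds, used as an other, unscaled unit. HISAT2 is named in the submitters' processing notes, without its version. The build and the read counter are not stated there. Libraries were made from Trizol-extracted total RNA with a TruSeq kit and without strand, per the labels' protocols. RPKM times exon length summed to 1.012 to 1.032 M per library. Depth was inferred from the steps of low RPKM values, of which 64.3% to 73.5% lay within 0.1 reads of a whole number, so no count model was used. Values of 2 reads outnumbered values of 1 read in all 24 libraries.

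Tests were run in R 4.3.3 with limma 3.58.1 on log2(RPKM + 1), which understates changes of low genes, with a trend in the prior variance. All 24 libraries in 6 groups entered the fit, with the 12703 models that had 1 RPKM or more in 4 or more libraries. All 163 members passed this filter, which their 110-cell animal libraries alone can meet. Two-sided p-values were adjusted over all models (Benjamini-Hochberg, threshold 0.05). The fit was tested on simulated data. Folds without log2 are ratios of mean RPKM.

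Library numbers come from the labels. Across models, animal and vegetal libraries of 1 number deviated together from their group means, with correlations of 0.40 to 0.49 at 110 cells and 0.37 to 0.58 at 8 cells. By this check, which did not compare libraries of different numbers, the numbers pair the libraries. The fit reported has no term for the number, so its p-values treat the libraries of 1 number as independent. The fit with the number as a block is an alternative.

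The members and lists were chosen with earlier results of these data known. Members named are the 10 with the highest animal mean at 110 cells, the 5 with the highest ratio, the 3 on each side of the ratio and of the 5 RPKM limit, those with a protein record, the 6 runs of neighbours with the highest summed animal level, the 3 highest and 3 lowest places of whole embryos and the 3 largest coefficients of variation among members at 20 RPKM or more, and the 3 highest vegetal means. The alternatives were other pseudocounts, filters, limits and scaling, a fit of the 8 libraries compared, the replicate block, and leaving out libraries.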

Additional observations from a re-analysis of the deposited data

Results flagged for a closer look

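Of 139 groups of 4 values tested for a library that stands apart, 7 were marked. In these the gap of 1 value to its nearest neighbour took up more of the range than the critical value of Dixon's test for 4 values. Chance marks about 1 in 20 groups, which is about the share marked here, so a mark alone does not set a library apart. In 4 members it was the vegetal library of number 5 at 110 cells. S118.g00474 had 27.8 RPKM there, against 0.951 to 2.85 RPKM in the other vegetal libraries (gap of 0.929 of the range). S255.g04863 had 24.4 RPKM, against 7.02 to 9.37 RPKM (0.865). S28.g02257 had 5.08 RPKM, against 0 to 0.818 RPKM (0.839). S53.g07217 had 3.30 RPKM, against 0 to 0.427 RPKM (0.871). Number 5 also stood apart in the median vegetal value as a percentage of the animal value over all members, at 17.1%, against 6.34% to 7.73% in the other numbers (0.870). S255.g12802 had 25.6 RPKM in the whole-embryo library of number 2, against 9.05 to 11.6 RPKM in the others (0.847). The sum over members in 8-cell vegetal libraries was lowest in number 5, at 23.7 RPKM, against 29.4 to 30.4 RPKM (0.857). What sets these libraries apart was not tested.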

How the results depend on the processing

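The number of members was within 1.5 times of 163 under every other limit and scaling tried, at 116 to 198, except for a 110-cell limit of 10 RPKM, which left 99. Leaving out libraries gave 139 to 178 models, which took in 129 to 162 of the 163 members and up to 22 other models. The count called higher in animal hemispheres at 110 cells was 101 to 156 under other settings, with 1.98% to 7.17% of all models tested called, and 122 to 151 with libraries left out (2.61% to 3.63%). The 101 came from a filter of 5 RPKM, under which 112 members were tested. The 156 came from the replicate block, which pairs libraries by number. Under the block the calls over all models were 911 higher in animal hemispheres at 110 cells, against 463 without it, and 39 in either direction at 8 cells, against 15, and no member was called at 8 cells. At 8 cells 1 member was called with a pseudocount of 0.1 RPKM, where 0.134% of the models tested were. In the fit of 8 libraries 1 member and 0.0866% of the models tested were called, and no member under the other settings. The median ratio was 8.38 with 0.1 in place of 1 RPKM added, 4.99 to 5.17 under the other settings, and 4.72 to 6.40 with libraries left out. The median place of whole embryos was 0.26 to 0.30 under other settings and 0.18 to 0.34 with libraries left out. Counts without overlap, recomputed with each library left out after seeing the data, were 112 to 140 for animal above vegetal, 43 to 84 for whole above vegetal and 42 to 93 for animal above whole. At the highest of these counts the shares of all models tested were 6.36%, 4.37% and 4.37%, against 4.79%, 2.43% and 2.72% with all libraries. Fewer libraries make an overlap less likely by construction. The 8-cell values rest on a few reads per model, and depth limits what can be seen there.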
